A study of Homo sapiens with 10 samples.

Results

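The genes of nucleotide synthesis and of the one-carbon pathway that feeds it were examined for binding of MYC. They are 36 of the 19974 protein-coding genes on chromosomes 1 to 22 and X, chosen by name from purine, pyrimidine, deoxynucleotide, folate and serine steps. A gene counted as bound when the summit of a peak lay within 1 kb of either end of its span on hg38. No binding rule was used to choose the genes, but they were chosen with earlier results of these data known. Their share bound is therefore a description only. Binding was measured by chromatin immunoprecipitation and sequencing with mouse NIH3T3 cells, a fibroblast line, added at 10% as a reference genome. The cells were U2OS, a human osteosarcoma line, with the endogenous MYC gene knocked out. They carried a FLAG-tagged MYC induced by doxycycline, and an antibody to FLAG recovered the bound DNA. The tagged protein was either wild type (WT) or 1 of 2 mutants, 3A and 7A, whose changed residues the labels do not give. Doxycycline at 1 µg/mL was given for 24 h to all 3 lines, and each protein has 2 immunoprecipitated libraries. The design text calls these biological replicates, and chromatin was fixed with 1% formaldehyde for 10 min. Of the 10 libraries, the other 4 are uninduced WT immunoprecipitates and inputs, which have no peak list of their own here; whether the inputs served as the control of the lists is not stated in the sources used here. In every group the MYC studied is a transgene in a knockout line, so binding of untagged MYC from its own gene was not measured.

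The authors gave 1 peak list for each induced protein, of 4749 peaks for WT, 845 for 3A and 64 for 7A. There is no replicate list, so no spread between replicates and no test between proteins or between gene groups could be had. Each peak carries the authors' fold enrichment at its summit over the local background. Folds were read within a list and not compared between lists. A peak list does not measure expression, so the labelled cell type could not be checked against marker genes.

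MYC is a transcription factor that pairs with MAX and binds E-boxes, short DNA elements whose canonical form is CACGTG. The synthesis of purine and of pyrimidine nucleotides both draws on phosphoribosyl pyrophosphate (PRPP). Folate-bound carbon units, which cells take largely from serine, supply atoms of the purine ring and the methyl group of thymidylate. Genes of these pathways are long known as MYC targets in proliferating cells.

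Promoter sequences of some of these genes are shown first. Each runs from 250 bases before a RefSeq transcription start (GRCh38.p14) to 50 bases from it, 5′ to 3′ on the strand of the gene. Capitals mark CACGTG, which reads the same on both strands, and the non-canonical E-box CACGCG, written CGCGTG on the other strand. PPAT, ATIC and MTHFD1L were bound by both WT and 3A. MTHFD1, CAD and MTHFD2 had a WT peak and no 3A peak.
PPAT, chr4:56435566-56435865, minus strand: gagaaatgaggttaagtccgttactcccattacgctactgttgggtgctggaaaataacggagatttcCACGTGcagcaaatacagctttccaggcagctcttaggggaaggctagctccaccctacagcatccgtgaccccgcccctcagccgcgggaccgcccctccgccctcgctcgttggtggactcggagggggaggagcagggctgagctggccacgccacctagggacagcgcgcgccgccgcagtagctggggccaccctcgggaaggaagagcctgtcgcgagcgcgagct
ATIC, chr2:215311809-215312108, plus strand: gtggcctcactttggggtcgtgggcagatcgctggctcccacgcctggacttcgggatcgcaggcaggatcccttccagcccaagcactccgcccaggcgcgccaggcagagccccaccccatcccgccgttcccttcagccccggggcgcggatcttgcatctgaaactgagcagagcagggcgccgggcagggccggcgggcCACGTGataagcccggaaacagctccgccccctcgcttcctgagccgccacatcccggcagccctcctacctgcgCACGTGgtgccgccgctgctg
MTHFD1L, chr6:150866083-150866382, plus strand: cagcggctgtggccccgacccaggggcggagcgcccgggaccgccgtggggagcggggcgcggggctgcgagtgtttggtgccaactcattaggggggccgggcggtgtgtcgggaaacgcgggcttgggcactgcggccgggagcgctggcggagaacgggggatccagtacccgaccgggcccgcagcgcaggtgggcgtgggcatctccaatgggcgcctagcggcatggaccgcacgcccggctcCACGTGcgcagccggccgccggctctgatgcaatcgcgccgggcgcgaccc
MTHFD1, chr14:64388103-64388402, plus strand: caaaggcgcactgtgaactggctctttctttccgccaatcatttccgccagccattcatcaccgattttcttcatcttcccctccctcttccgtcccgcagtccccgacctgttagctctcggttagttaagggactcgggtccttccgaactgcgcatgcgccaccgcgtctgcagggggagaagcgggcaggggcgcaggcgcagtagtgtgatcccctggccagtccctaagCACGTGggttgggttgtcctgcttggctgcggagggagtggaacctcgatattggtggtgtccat
CAD, chr2:27217119-27217418, plus strand: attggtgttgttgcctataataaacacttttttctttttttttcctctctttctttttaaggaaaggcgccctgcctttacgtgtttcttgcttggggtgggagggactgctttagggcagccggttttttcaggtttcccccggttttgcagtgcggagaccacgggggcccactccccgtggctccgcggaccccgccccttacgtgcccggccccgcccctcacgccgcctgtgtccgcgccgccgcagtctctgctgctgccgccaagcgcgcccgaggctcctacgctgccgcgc
MTHFD2, chr2:74198365-74198664, plus strand: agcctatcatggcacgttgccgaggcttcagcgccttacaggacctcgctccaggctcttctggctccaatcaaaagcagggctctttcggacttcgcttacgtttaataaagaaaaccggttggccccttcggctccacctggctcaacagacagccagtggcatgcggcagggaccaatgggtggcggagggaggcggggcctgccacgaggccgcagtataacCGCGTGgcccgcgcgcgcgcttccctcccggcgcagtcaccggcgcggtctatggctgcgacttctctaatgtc

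WT MYC occupied most of these genes. By the gene-end rule it bound 23 of the 36, or 63.9%, where 16.8% of all protein-coding genes were bound. The 23 summits were 23 different peaks. Their median fold was 5.63, with quartiles of 4.67 and 8.75, against 5.13 (4.13 to 6.83) over all 3352 bound genes. CAD was highest at 17.5 and RRM2 lowest at 3.74. The median −log10 q-value was 38.5, against 26.6 over all bound genes. The medians thus lay close, while the upper quartile was higher for the nucleotide and one-carbon genes, a difference that was not tested. Their peaks were 481 to 1846 bp wide, with a median of 1190 bp against 875 bp over all bound genes.

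The span of a gene hides starts that lie inside it. Of the 36 genes 32 have a start in the RefSeq promoter table, and ADSL, IMPDH2, PSPH and SHMT2 have none there. A WT summit lay within 1 kb of a listed start of 22 of those 32, where the share over all 15813 protein-coding genes with a listed start was 18.8%. This added PFAS, PAICS and GMPS. Counting either a gene end or a listed start, a rule chosen after the data were seen, WT had 26 of 36 against 18.4% of all genes. These 26 genes hold 25 peaks, since PPAT and PAICS share 1. The values just inside the 1 kb limit were 891 bp for GART and 810 bp for PPAT. Just outside were GMPS at 1661 bp, PFAS at 1769 bp and IMPDH1 at 4091 bp, whose 1 listed start is that gene end.

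**Figure D1:**
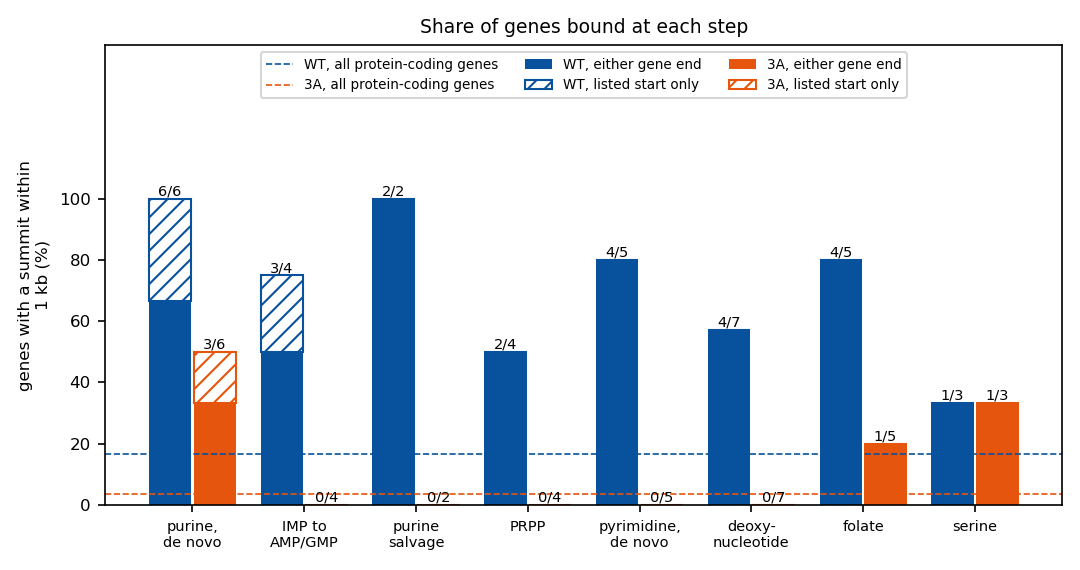
Percentage of genes at each step with a summit within 1 kb, for WT (blue) and 3A (orange). Solid bars count either gene end, hatched bars add genes bound at a listed start only, the numbers over the bars are genes bound of genes listed, and dashed lines give the share over all protein-coding genes for either gene end (16.8% and 3.51%). With the hatched part all 6 de novo purine genes had a WT summit, and 1 of the 3 serine genes had one.

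All 6 genes of de novo purine synthesis, the route from PRPP to inosine monophosphate (IMP), had a WT summit at a gene end or a listed start. By the gene-end rule alone there were 4. PPAT encodes the amidotransferase of the committed step, and PAICS the bifunctional enzyme of a middle step. The genes run in opposite directions, and the annotated span of PAICS (chromosome 4, 56410507 to 56464578) overlaps that of PPAT (56393362 to 56435615) because of a far upstream start. The 2 other listed starts of PAICS, at 56435752 and 56436260, lie just beyond the start of PPAT. A single WT peak (56434984 to 56436829) with a fold of 11.2 covered all 3 of these starts. Its summit was 810 bp upstream of the PPAT start and 165 bp downstream of the nearest PAICS start. It was the widest peak among those of the genes studied, and its fold exceeded that of 95.4% of WT peaks.

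PFAS, the gene of formylglycinamidine ribonucleotide synthase, had a WT fold of 10.4, with its summit 88 bp downstream of the listed start on chromosome 17 (peak 8248906 to 8249718). ADSL encodes adenylosuccinate lyase, which acts both on the way to IMP and on the branch to AMP. Its fold was 9.01, with the summit 259 bp inside the gene end (chromosome 22, peak 40345896 to 40347300). ATIC, which encodes the enzyme of the closing steps to IMP, had a fold of 8.68 and a summit 63 bp downstream of its start (chromosome 2, 215311304 to 215312632). GART, a trifunctional enzyme gene of the early steps, had the lowest fold of the 6, 4.92, on chromosome 21 (33541274 to 33542869). The summit was 891 bp inside the gene end and 115 bp from the nearest of 3 listed starts. At 5 of the 6 genes the WT fold thus lay above the upper quartile of bound genes, 6.83, and GART lay below the median.

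The branch from IMP to AMP and GMP had lower folds. IMPDH2, one of 2 genes for IMP dehydrogenase, had a WT fold of 4.60 with the summit 40 bp inside the gene end. That summit was also 349 bp from QRICH1. ADSS2, the adenylosuccinate synthase gene, had 4.20, and its summit was also 584 bp from CATSPERE. GMPS, the GMP synthase gene, had 3.43, with the summit 441 bp downstream of its listed start, which gave it the lowest fold of all 26 genes. IMPDH1, the other IMP dehydrogenase gene, had no summit at an end or listed start, but a WT peak inside the gene with a fold of 8.73. No gene of this branch reached the median fold of bound genes by the rule.

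The PRPP genes were bound at 2 of 4 and the purine salvage genes at 2 of 2. PRPS2, a PRPP synthetase gene on the X chromosome, had a fold of 4.74 with the summit 198 bp from its start. PRPSAP1, which encodes a protein associated with the synthetase, had 4.06. The paralogues PRPS1 and PRPSAP2 had no summit nearer than 25903 and 73436 bp. HPRT1 and APRT return free purine bases to nucleotides. The fold was 5.63 at HPRT1 and 7.73 at APRT, with summits 429 and 151 bp downstream of the starts.

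De novo pyrimidine synthesis was bound at 4 of 5 genes. CAD, whose product carries out the opening steps of the pathway, had the highest fold of the 36 genes, 17.5, above that of 99.2% of WT peaks. The peak (chromosome 2, 27217156 to 27218030) was 875 bp wide, with the summit 116 bp downstream of the start and 302 bp from the neighbouring gene ATRAID. CTPS1, a CTP synthase gene, followed with 9.81 and a summit 355 bp downstream of its start. DHODH, the gene of the mitochondrial dihydroorotate dehydrogenase, had 7.30. UMPS, which encodes the enzyme that completes UMP, had 4.60 with the summit 60 bp from its start. CTPS2, the paralogue of CTPS1 on the X chromosome, had no WT summit within 73767 bp. As with IMPDH2, PRPS2 and PRPSAP1, a WT peak stood at 1 paralogue and not at the ends or listed starts of the other. This did not hold for all related genes. WT summits stood at both MTHFD1 (fold 6.20) and MTHFD1L (9.17), and at both MTHFD2 (8.78) and MTHFD2L (5.04). The same was true of NME1 (28.9) and NME2 (22.8).

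Genes of deoxynucleotide supply were bound at 4 of 7, at mostly low folds. DCTPP1, a dCTP pyrophosphatase gene, stood above the others at 8.72, with the summit 78 bp upstream of its listed start. DUT, whose product removes dUTP, had 5.03, TYMS, the thymidylate synthase gene, 4.03, and RRM2, the small subunit of ribonucleotide reductase, 3.74. The RRM2 and TYMS summits lay 48 and 116 bp upstream of a start. RRM1, which encodes the large subunit of the same reductase, had no WT summit within 252901 bp. For CMPK1, the UMP and CMP kinase gene, the distance was 108250 bp. TK1, the cytosolic thymidine kinase gene, had its nearest WT summit 5085 bp from the gene end opposite its listed starts.

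Folate genes were bound at 4 of 5. The fold was 9.17 at MTHFD1L, the mitochondrial formyltetrahydrofolate synthetase gene, and 8.78 at MTHFD2, the mitochondrial methylenetetrahydrofolate dehydrogenase gene. The MTHFD2 summit was 2 bp from its start (chromosome 2, 74198177 to 74199691) and the MTHFD1L summit 1 bp from a listed start (chromosome 6, 150865508 to 150866561). SHMT2, the mitochondrial serine hydroxymethyltransferase gene, had 5.05, the lowest of the 4. MTHFD1, the gene of the cytosolic trifunctional enzyme, had 6.20, with the summit 22 bp downstream of its start. SHMT1, the cytosolic counterpart of SHMT2, had its nearest WT summit 13176 bp away.

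Serine synthesis was bound at 1 of 3 genes. PHGDH and PSAT1, which encode the opening 2 enzymes of the pathway, had no WT summit within 63741 and 1719495 bp. PSPH, the phosphatase gene of the closing step, had a WT fold of 5.18 with the summit 43 bp inside the gene end. The same summit lay 364 bp from CCT6A, a chaperonin subunit gene, so the peak cannot be given to PSPH alone. By group, the median WT fold at an end or a listed start was 9.71 for de novo purine synthesis (6 genes, 5 peaks), 8.56 for de novo pyrimidine synthesis (4 genes) and 7.49 for folate (4 genes). It was 6.68 for purine salvage (2 genes), 4.53 for deoxynucleotides (4 genes), 4.06 and 4.74 for the 2 PRPP genes and 4.20 for the purine branch (3 genes). Genes within a group ranged widely, from 4.60 to 17.5 among the pyrimidine genes, and differences between the groups were not tested. CAD, PPAT, PAICS, PFAS, CTPS1 and MTHFD1L lay in the top 10% of the WT list by fold (9.08 or more). They were 6 of the 26 genes bound at an end or a listed start, or 23.1%, against 11.3% of all 3682 such genes. That rule was chosen after the data were seen. PAICS and PFAS entered by a listed start only, and PAICS shares its peak with PPAT. The share by gene ends alone was not computed.

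**Figure D2:**
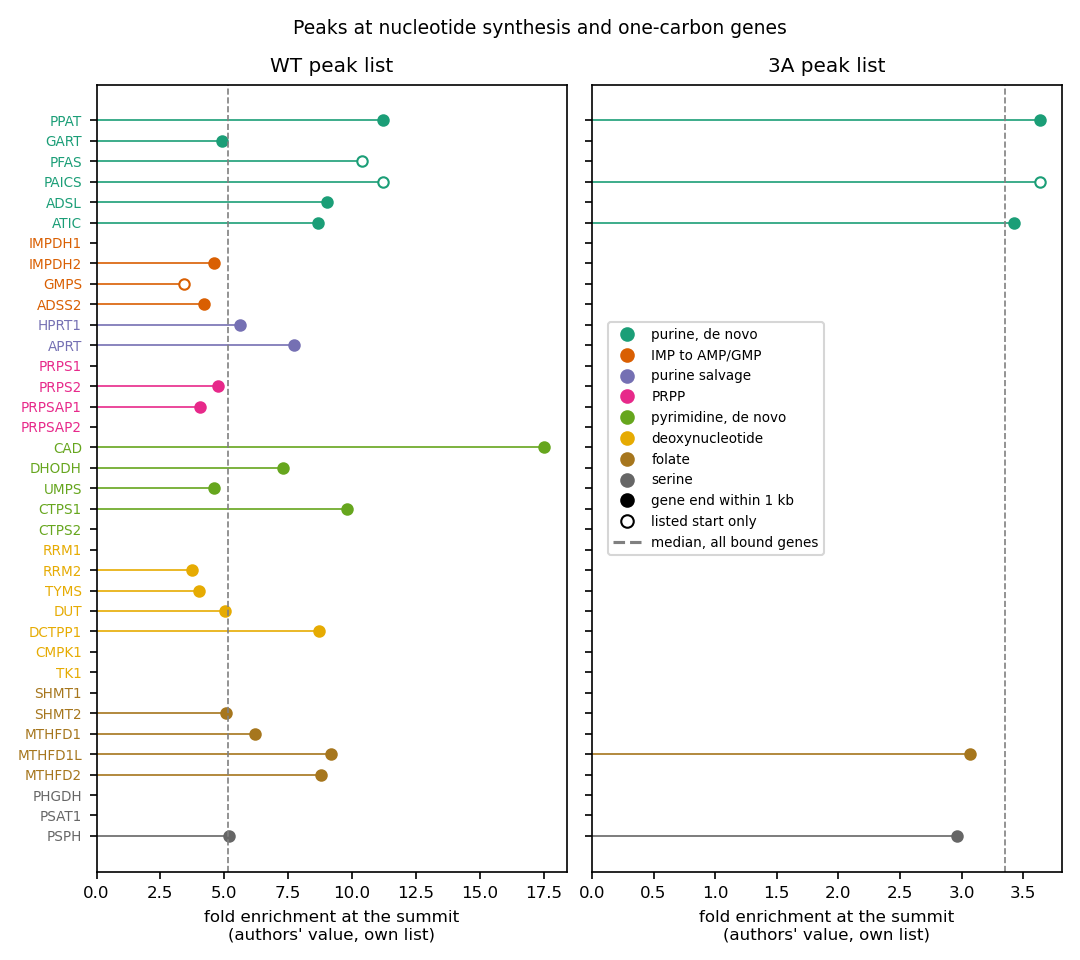
Fold enrichment of the peak at each of the 36 genes in the WT list (left) and the 3A list (right), coloured by step; the x axes differ and values are not comparable between them. Filled points are genes with a summit within 1 kb of a gene end, open points those bound at a listed start only, a name with no point had neither, and the dashed line is the median over all genes bound at an end (5.13 for WT, 3.36 for 3A). CAD stands highest in WT at 17.5, and 5 genes carry a 3A point.

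Distances from summit to start were read for genes with a summit within 1 kb of a listed start, a limit that itself bounds them. For the 22 genes with a WT summit near a listed start, the median distance was 115.5 bp, against 155.5 bp over all 2974 such genes. It was at most 100 bp for 10 of the 22, at most 250 bp for 17 and at most 500 bp for 21, PPAT being the exception. Over the 2974 genes, 1053 lay within 100 bp, 2006 within 250 bp and 2612 within 500 bp. The summit was downstream of the start at 15 of the 22 genes and upstream at 7. The summit shared by PPAT and PAICS counts on both sides, and the directions were not counted over the 2974 genes.

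**Figure D3:**
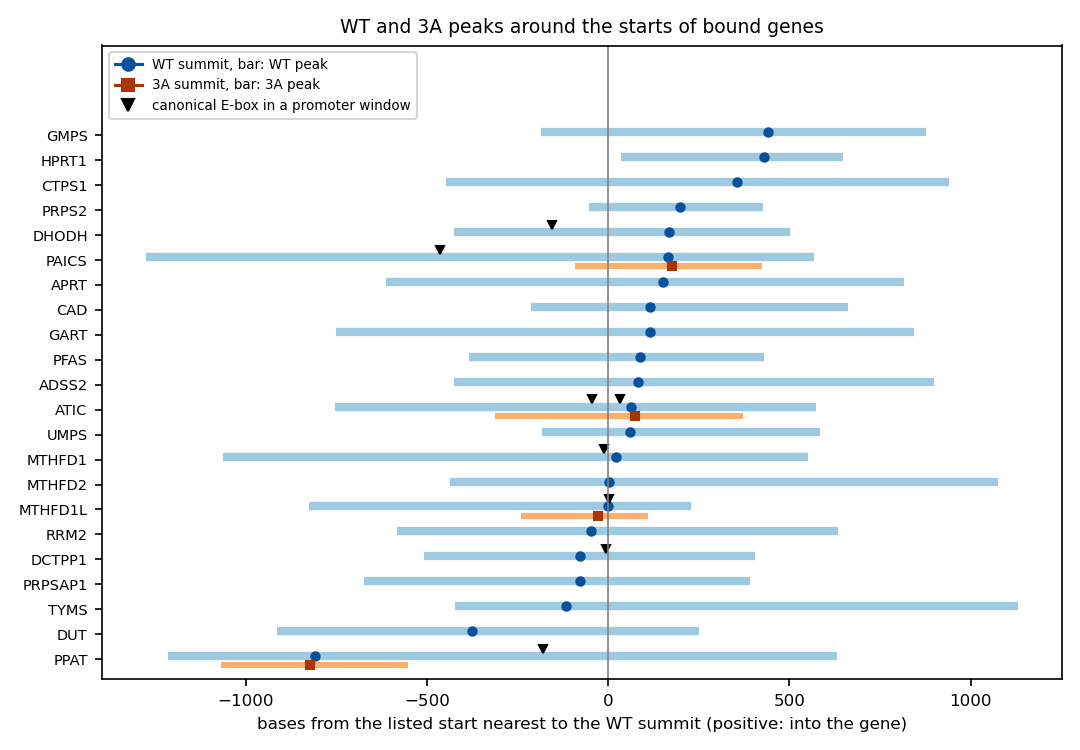
WT peaks (blue bars, summit as a point) and 3A peaks (orange bars, summit as a square) around the listed start nearest to the WT summit, for the 22 genes bound by WT at a listed start; the x axis is in bases, positive into the gene. Triangles mark canonical E-boxes in the RefSeq promoter windows, which reach from 250 bases before to 50 from each listed start, so E-boxes elsewhere in a peak are not shown. The 3A summits of PPAT, PAICS, ATIC and MTHFD1L lie within 26 bp of the WT summits.

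The canonical E-box was present in a promoter window of 7 of the 22 genes that WT bound at a start (31.8%), and of 0 of the other 10 genes with a window. Over all protein-coding genes 10.9% had a window with CACGTG, and 20.3% of those that WT bound at a start. The 7 genes hold 7 distinct sites, because ATIC has 2 and PPAT and PAICS share 1, and all 7 sites lay inside a WT peak. All 7 genes had a WT summit within 1 kb of a start, so this nearness is partly set by the rule. At MTHFD1L the WT summit fell within the 6 bases of the E-box, which itself spans the listed start shown above. The distance from the WT summit to the middle of the nearest E-box was 31 bp at ATIC and 34 bp at MTHFD1. It was 71 bp at DCTPP1, 324 bp at DHODH, and 630 bp at the site shared by PPAT and PAICS. The windows of CAD and MTHFD2 shown above hold no CACGTG, and that of MTHFD2 holds CGCGTG, its middle 23 bp from the summit. Bases outside the windows were not read, so these matches describe the windows only.

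The fold sets the signal at a summit against a local background, and that background differed among the genes. The number of fragments piled up at each summit and the background were recovered from the authors' fold and p-value. Over the 25 WT peaks at the 26 genes the pileup ran from 31 at PRPS2 to 265 at PPAT and PAICS, with a median of 110, and the background from 5.75 to 27.5. CAD, highest by fold, was 7th by pileup, with 167 fragments over a background of 8.59. MTHFD2, 7th by fold, was 2nd by pileup, with 237 over 26.1. PFAS went from 3rd to 13th, with 110 over 9.67, and DCTPP1 from 8th to 16th, with 85 over 8.86. TYMS, at 114 over 27.5, and PRPSAP1, at 113 over 27.1, had low folds and pileups above the median. The lowest backgrounds, 5.75 each, were those of the X-linked genes HPRT1 and PRPS2. The peaks of PPAT with PAICS, CTPS1, ADSL, MTHFD1L, MTHFD2 and CAD were among the 7 highest by both measures.

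**Figure D4:**
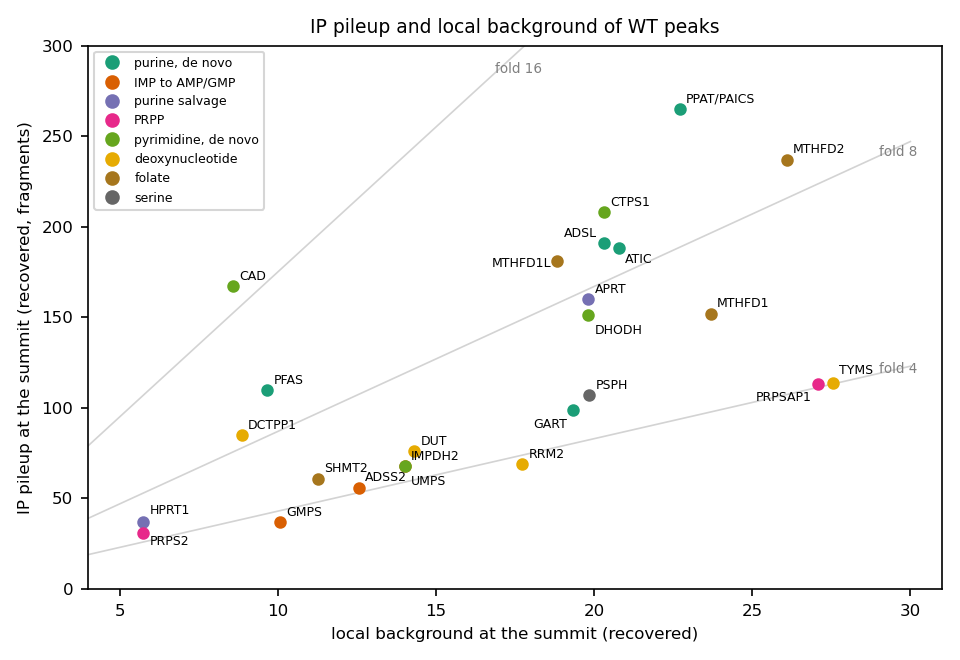
IP pileup at the summit (y axis, fragments) against local background (x axis, fragments), both recovered from the authors' values, for the 25 WT peaks, coloured by step; IMPDH2 and UMPS have the same values and lie on 1 point. Grey lines join points of equal fold (4, 8 and 16). CAD reaches the highest fold with 167 fragments over a background of 8.59, while MTHFD2 has 237 over 26.1.

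By the gene-end rule the 3A mutant bound 4 of the 36 genes, or 11.1%, where it bound 3.51% of all protein-coding genes. They were PPAT (3A fold 3.63), ATIC (3.42), MTHFD1L (3.07) and PSPH (2.96), against a median of 3.36 over all 701 genes bound by 3A. At a listed start 3A had 4 genes, against 3.88% of all genes with such a start, and at an end or a listed start 5, against 3.79% of all genes. PAICS was the gene added. Within 500 bp of a gene end 2 remained, ATIC and PSPH, against 3.14% of all genes. All 5 were also bound by WT. The 3A summit was 12 bp from the WT summit at PPAT and PAICS, 12 bp at ATIC and 26 bp at MTHFD1L. At PSPH it was 410 bp away. The 3A peaks at PPAT with PAICS, ATIC and MTHFD1L, and the one with the highest fold at PSPH, lay within the WT peaks. They were narrower, at 353 to 698 bp. At PSPH there were 2 summits of 3A, the nearer 367 bp from PSPH, and they were 46 and 534 bp from CCT6A. At the 4 3A peaks with the highest fold at their genes, the pileup was 69 to 96 fragments over backgrounds of 21.8 to 25.7. The other 3A summit at PSPH was not included.

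Seen from WT, 4 of the 23 genes bound at an end were also bound by 3A, or 17.4%, close to the 18.8% of all 3352 WT-bound genes. This share therefore says nothing particular about nucleotide genes. None of the 8 genes with a WT fold under 5 had a 3A summit, against 10.8% of all genes in that range. Between 5 and 8 it was 1 of 7, against 19.3%, and from 8 upward 3 of 8, against 41.3%. The 5 genes from 8 upward without one were CAD (WT fold 17.5), CTPS1 (9.81), ADSL (9.01), MTHFD2 (8.78) and DCTPP1 (8.72). The nearest 3A summits to them were 126734 bp away at CAD, 287893 bp at CTPS1, 826012 bp at ADSL, 50781 bp at MTHFD2 and 618058 bp at DCTPP1. PFAS, bound at a listed start only with a WT fold of 10.4, had none nearer than 112605 bp. No gene of pyrimidine synthesis or deoxynucleotide supply was bound by 3A under the rule. The same held for the purine branch, purine salvage and PRPP genes. Since 3A bound only 3.51% of all genes, nothing is read from this absence in such small groups. RRM2 had a 3A peak 1888 bp from its start (fold 3.28), over a separate WT peak whose summit was 5 bp away.

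The 4 genes with a 3A summit at a listed start, PPAT, PAICS, ATIC and MTHFD1L, all have CACGTG in a window. The 3A peaks of ATIC and MTHFD1L covered it, and that of PPAT and PAICS did not. Over all genes bound by WT at a start the motif was about as frequent with a 3A summit as without, at 21.2% of 557 and 20.1% of 2417. The pattern among the 4 genes, which hold 3 peaks, was thus not seen over all genes.

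The 7A mutant had no summit within 1 kb of any of the 36 genes. It had one at 25 protein-coding genes, or 0.125%, so that a list of this size would seldom hold one, and nothing is read from the 0. The nearest 7A summit was 239999 bp from SHMT1.

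Of 75 other genes of nucleotide and one-carbon metabolism, WT bound 22 at an end and 28 at an end or a listed start. The share of all genes bound at an end or a listed start was 18.4%. The share at an end was 29.3%, between the 63.9% of the genes above and the 16.8% of all genes. The nucleoside diphosphate kinase genes NME1 (28.9) and NME2 (22.8) had the highest folds. SLC19A1, the reduced folate carrier gene (17.9), and SLC29A1, a nucleoside transporter gene (14.9), followed, each with the summit inside the span at a listed start. Of the methionine cycle, MAT2A, an S-adenosylmethionine synthetase gene, had 13.0, AHCY, the adenosylhomocysteinase gene, 12.5, and MTR, the methionine synthase gene, 5.81. GCSH, a glycine cleavage protein gene, had 11.8. Purine genes included AMPD2 (12.6), AK4 (8.50), ADK (7.12), PNP (6.54), ITPA (3.36) and DGUOK (2.98). Pyrimidine genes included UCK2, a uridine and cytidine kinase gene (10.97), UCKL1 (6.60), TYMP (6.24), DCTD (6.19), NME6 (6.13) and DTYMK (5.84). The TYMP summit was 664 bp from the gene end opposite its listed starts, and 3596 bp from the nearest of those. Folate genes included FPGS, which encodes the enzyme that adds glutamates to folate (10.05), SLC46A1 (5.42), MTHFD2L (5.04), SLC25A32 (4.46), MTFMT (4.32), and MTHFS (3.70). At an end 3A had a summit at 4 of the 75 (5.33%), against 3.51% of all genes. By the wider rule it had one at 6, against 3.79% of all genes. The 6 were NME1 (3A fold 6.27), AHCY (4.42), NME2 (4.37), GCSH (4.20), NME6 (3.97) and TK2 (2.95). TK2, the mitochondrial thymidine kinase gene, was the 1 of these without a WT summit by that rule, the nearest being 2482 bp from a gene end.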

How the data were processed

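Per the submitters' processing notes, reads were handled with cutadapt, Bowtie2, SAMtools, Picard and MACS2, and the builds hg19, mm10 and hg38 are named without roles. The authors deposited 1 narrowPeak list per induced protein. The sources used here do not state how libraries were combined, which control was used or how mouse reads entered. For every peak the authors' values are a fold enrichment (a ratio) and the −log10 of a p-value and of a q-value. The deposited score was left out. Read depth per library was not used here.

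The lists lie on hg38: 60.2% of WT summits were within 1 kb of a protein-coding gene end of GRCh38.p14, against 5.96% and 5.22% after shifts of 100 kb. All 36 symbols matched the RefSeq table. Summits were assigned to every gene within 1 kb, and the highest fold was taken where a gene had several. All 36 genes, bound genes among the 75 others and genes sharing a summit are named, except items that are not reported here. The genes and lists were chosen with earlier results of these data known. Pileup and background were recovered from fold = (pileup + 1)/(background + 1) and a Poisson tail p, with a tolerance of 0.02 pileup steps, for 4733 of 4749 WT and 845 of 845 3A peaks. This and the assignment were tested on simulated data. Pileups cover counting only. Alternatives concerned the window, −log10 q, whole peaks, the nearest gene and listed starts. Software: Python 3.11.15, numpy 2.4.6, pandas 2.3.3, scipy 1.17.1 and matplotlib 3.10.9.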

Additional observations from a re-analysis of the deposited data

How the results depend on the processing

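The number of the 36 genes bound by WT was 19 to 26 under every alternative run, against 23. It was 19 within 500 bp (13.9% of all genes), 22 at listed starts (18.8%) and 26 within 5 kb (21.2%). It was 23 at a −log10 q of at least 5 (16.7%) or 10 (16.02%), with whole peaks (17.9%) or with the nearest gene only (14.2%). Within 500 bp the genes lost were DUT, GART, MTHFD1L and PPAT, whose summits lie farther from the annotated end than from a listed start or, for PPAT, upstream of its start. The same window gave 2 genes bound by 3A (3.14% of all genes) and 2 kept from WT (19.1% of all WT-bound genes), in place of 4 each, and 2 de novo purine genes bound by WT in place of 4. Within 5 kb all 4 genes from IMP to AMP and GMP were bound by WT, in place of 2. At listed starts alone the serine genes had 0 in place of 1, since PSPH has no listed start. With the nearest gene only, PSPH was lost from 3A, leaving 3 (2.90% of all genes). No gene was bound by 7A in any of these. No paired analysis was possible because each protein has 1 list, which also prevents leaving out a replicate. Depth per library and the uninduced level were not used, so a missing 3A or 7A peak is not a measured absence of binding.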

Other observations

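The non-canonical E-box, CACGCG or CGCGTG, was found in a promoter window of 6 of the 22 genes that WT bound at a listed start, 27.3%, and of 2 of the 10 others with a window. It was in 32.8% of all genes that WT bound at a start and in 18.1% of all genes with a window. None of the 4 genes with a 3A summit at a start had it. For GC content each gene was given the value of its most GC-rich window. The median over genes was 68.7% for the 22 bound genes and 66.8% for the other 10. It was 69.0% for all genes that WT bound at a start and 64.7% for all genes with a window.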
